A study of Mus musculus with 8 samples.

Results

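The clade A serpins described here are 10 genes that the liver secretes into plasma: the 5 mouse copies of the α1-antitrypsin gene (Serpina1a, Serpina1b, Serpina1c, Serpina1d and Serpina1e), 3 genes of the Serpina3 group (Serpina3k, Serpina3m and Serpina3n), and 2 hormone carriers (Serpina6, corticosteroid-binding globulin, and Serpina7, thyroxine-binding globulin). They were taken by name. Every row of the count table whose Ensembl identifier maps to 1 of these symbols in the GRCm38 annotation is a member. The names, and the gene lists used below, were chosen with earlier results of these data known. All 10 were found among the 49671 genes of the table, and all 10 passed the filter on low counts (at least 1 CPM in 2 libraries), as did 13117 genes in all. Liver RNA from C57BL/6 mice of post weaning age was sequenced in 8 libraries, 2 for each sex of each genotype, WT and NT-KO. NT-KO mice were homozygous for a CRISPR/Cas9 deletion at the start of the coding sequence of Lbr, the gene of the lamin B receptor, in a line that goes back to 1 founder male and was backcrossed to C57BL/6N, and WT mice carried the intact gene. The labels name no treatment and do not say that the 2 libraries of a group came from separate animals, so the p-values below measure only the spread between these libraries, which may be technical.

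Serpins are protease inhibitors that offer an exposed loop, the reactive centre loop, as bait: a protease that cuts it is trapped in a covalent complex. α1-antitrypsin protects tissue from neutrophil elastase and is made mostly by hepatocytes, and the mouse carries several gene copies in place of the single human one. Serpina3 products resemble α1-antichymotrypsin, an acute-phase inhibitor of chymotrypsin-like proteases. Serpina6 and Serpina7 kept the serpin fold but not the inhibition, and carry glucocorticoids and thyroid hormone in blood.

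The libraries held 45020377 to 64396291 counts, and the lowest count of any member in any library was 264 (Serpina7). For the other members counting error was small beside the spread between libraries. For Serpina7 it was not in every group: the male WT libraries had 349 and 264 counts, at 6.16 and 6.23 CPM. Lbr was at 6.54 to 7.99 CPM (counts scaled to library size by TMM) in the 4 WT libraries and at 12.8 to 14.0 CPM in the 4 NT-KO libraries; most of the gene lies outside the deletion, so its count does not check the loss of the deleted bases, but no library lay on the other genotype's side. Xist was at 788 to 967 CPM in female and 0.723 to 3.21 CPM in male libraries, and Ddx3y, Eif2s3y, Kdm5d and Uty were at 12.3 to 58.7 CPM in males and at most 0.153 CPM in females. All 11 tested hepatocyte markers were detected in every library, with a summed level of 85510 to 123440 CPM. Male WT replicate 2 and female NT-KO replicate 1 stood apart from their partners: they held 146 and 69.9 CPM of Serpina3c, a serpin that is no member, against 0.808 to 7.11 CPM in the other 6. Members that change sign or lose a call without male WT replicate 2 and female NT-KO replicate 1 are named below. Counts and sums of gene lists and shares over all genes are given with these libraries included, so their dependence on them is not shown.

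Of the 10 members, 9 lay within 767.7 kb of chromosome 12 (GRCm38 chr12:103646630-104414329), and Serpina7 lay on the X chromosome (chrX:139079257-139085236). The 5 Serpina1 genes were the copies hardest to tell apart. Their coding sequences were 96.3% to 98.5% identical in pairs, differed at 86 aligned columns and shared an identical run of 226 bases. Of the 50-base stretches in each gene's transcripts, 79.3% of Serpina1c, 57.6% of Serpina1a, 50.9% of Serpina1d, 34.6% of Serpina1e and 29.5% of Serpina1b were also found in another gene. The share was 6.9% to 19.1% for the Serpina3 members and 0% for Serpina6 and Serpina7. A read that fits several genes equally may have been dropped or split, which was not stated, so levels of Serpina1a, Serpina1c and Serpina1d in particular are uncertain. The densest difference between the copies was a 60-base window of the last coding exon with 18 variable columns. It encodes part of the reactive centre loop and is printed here because it is both the protease bait and the stretch where the copies differ most (GRCm38 coding strand, 5′ to 3′, capitals mark columns that differ in at least 1 of the 5).
Serpina1a: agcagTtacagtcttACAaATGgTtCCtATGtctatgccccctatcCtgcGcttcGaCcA
Serpina1b: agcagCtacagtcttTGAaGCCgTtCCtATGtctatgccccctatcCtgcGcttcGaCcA
Serpina1c: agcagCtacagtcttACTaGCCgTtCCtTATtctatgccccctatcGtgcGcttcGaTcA
Serpina1d: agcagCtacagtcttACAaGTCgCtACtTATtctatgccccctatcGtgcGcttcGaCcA
Serpina1e: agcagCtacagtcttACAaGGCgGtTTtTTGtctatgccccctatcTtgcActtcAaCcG
The windows lie on the minus strand at chr12:103853757-103853816 (Serpina1a), chr12:103728324-103728383 (Serpina1b), chr12:103895094-103895153 (Serpina1c), chr12:103763762-103763821 (Serpina1d) and chr12:103947100-103947159 (Serpina1e). Serpina1e differed from the most frequent base of the 5 at 8 positions of the window, and the other 4 genes at 4 to 6.

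Together the 10 members took 3.77% to 5.05% of all counts in the 4 male libraries and 2.20% to 2.70% in the 4 female libraries. At these depths the exact 95% binomial interval of the highest share was 5.05% to 5.06% and that of the lowest 2.19% to 2.20%, for counting error only. Per kilobase of exon, Serpina3k was the leading member in male WT (9573 CPM per kb, rank 9), female WT (3532, rank 16) and female NT-KO (3513, rank 13), and Serpina1e in male NT-KO (6804, rank 11). These ranks are among all annotated genes of the table, with rRNA, miRNA and mitochondrial genes left out. Serpina7 was the lowest member in every group, at 2.49 to 7.13 CPM per kb. The order of the others changed between groups: Serpina1e had rank 2 of the 10 in male WT and rank 9 in both female groups. Levels between genes of a family depend on how shared reads were counted: divided by the number of stretches found in that gene alone in place of its length, Serpina1e had rank 1 in both male groups and Serpina1c in both female groups.

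**Figure D1:**
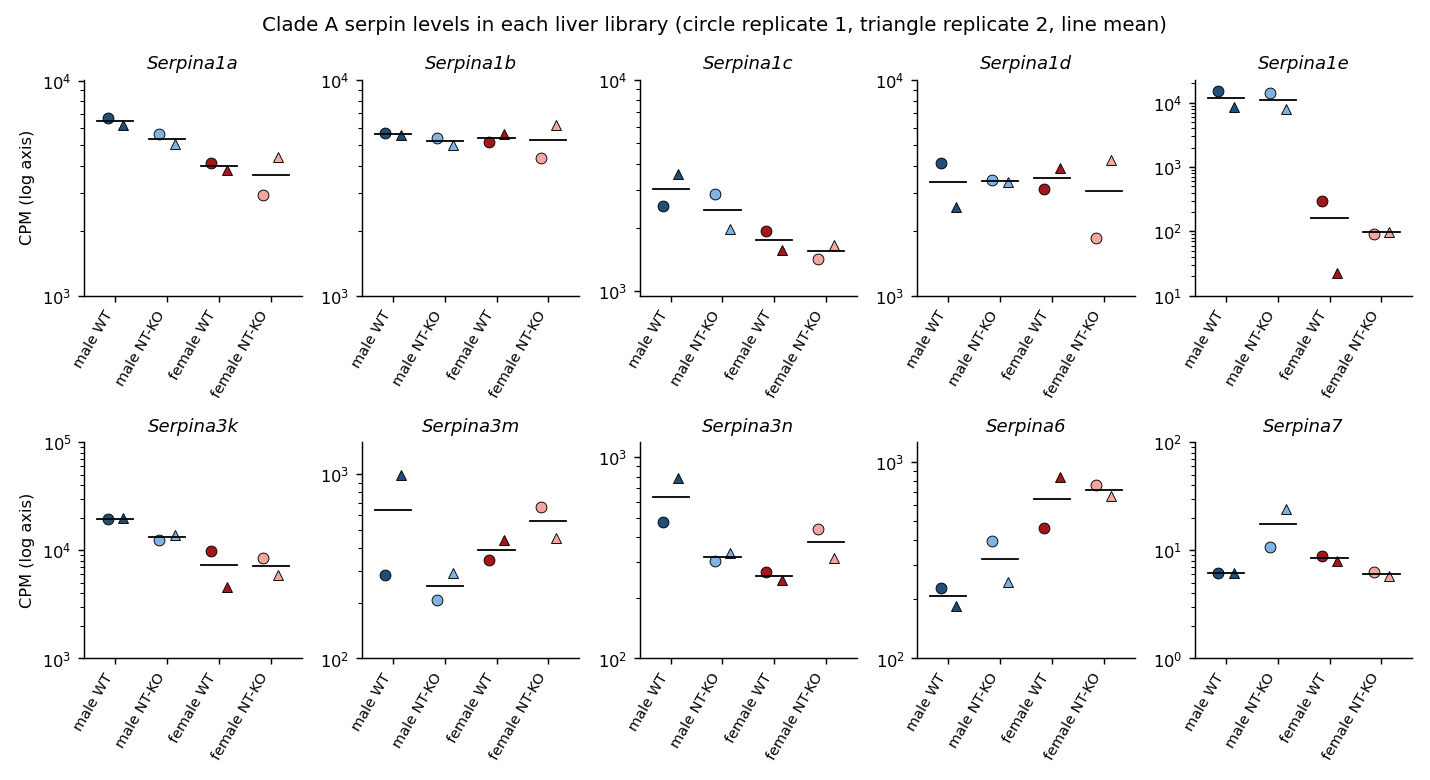
Level of each of the 10 members in CPM (log axis, a separate scale for each gene) in the 8 libraries, by group, with circles for replicate 1, triangles for replicate 2 and a line at the mean. Serpina1e lies between 7870 and 15109 CPM in male and between 22.4 and 298 CPM in female libraries, while Serpina1b stays between 4349 and 6184 CPM in all 8.

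The first comparison asked how the members differ between the sexes in WT liver. Serpina1e and Serpina3n were higher and Serpina6 was lower in males than in females, 3 of 10 members at an FDR of at most 0.05 by edgeR's quasi-likelihood test, where 6.44% of all 13117 tested genes passed (3.12% higher and 3.32% lower in males). The median log2 fold change of the 10 was 0.70, with 7 positive and 3 negative, beside a median of -0.00 over all tested genes. The groups did not overlap for 7 of the 10 (5 higher in males, as 30.6% of all genes were, and 2 lower, as 31.4% were), where 62% of all genes had groups that did not overlap. At an unadjusted p under 0.05 there were 6 members (27% of genes). The NT-KO libraries allowed the same comparison: 1 of the 10 passed, Serpina1e, where 1.86% of tested genes passed (0.983% higher in males). Again 7 members had groups that did not overlap, against 34.3% of all genes: 5 higher in males (16.9% of genes) and 2 lower (17.4%). At an unadjusted p under 0.05 there were 6 members (9.81% of genes). In bulk tissue fewer cells of a type and less RNA per cell cannot be told apart.

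Serpina1e (chr12:103946931-103958975, minus strand) had the largest sex difference of the 10. Male WT libraries held 15109 and 8413 CPM, and female WT libraries 298 and 22.4 CPM. In NT-KO the male libraries held 14136 and 7870 CPM and the female libraries 92.6 and 99.5 CPM. Every male library was above every female one in both genotypes, by a ratio of mean levels of 73.5 in WT and 115 in NT-KO. The log2 fold change, male over female, was 6.20 (SE 1.12, n = 2 and 2, FDR 0.0224) in WT and 6.84 (SE 1.16, FDR 0.0244) in NT-KO. The sex difference was not shown to differ between the genotypes (difference 0.64 on the log2 scale, SE 1.27, FDR 0.924). The 2 female WT libraries themselves differed 13.3-fold, and the fold change was 9.04 without female WT replicate 1 and 5.30 without replicate 2. The call was lost, with the direction kept, without male WT replicate 1 (WT, FDR 0.0516), without male NT-KO replicate 1 (NT-KO, 0.0821), without female NT-KO replicate 1 or 2 (NT-KO, 0.271 and 0.217) and without both libraries high in Serpina3c (WT 0.0928, NT-KO 0.341). It was also lost with robust dispersion (WT 0.0666, NT-KO 0.149) and, in WT, in the 4 compared libraries alone (0.0605) and there with the replicate numbers crossed as a block (0.0633). Since 34.6% of its 50-base stretches occur in another gene, how much of the female level is Serpina1e cannot be told apart from reads of the other copies.

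The promoter of Serpina1e was close in sequence to that of Serpina1b, the copy whose level differed least between the sexes. Both windows run from 250 bases before to 50 bases after the annotated start (RefSeq, GRCm38.p6, minus strand, Serpina1b at chr12:103738140-103738439 and Serpina1e at chr12:103956848-103957147), and the Serpina1e window begins 50 bases further along. Over the 248 aligned bases they differed at 4 (98.4% identical, gaps left out), which are in capitals.
Serpina1b: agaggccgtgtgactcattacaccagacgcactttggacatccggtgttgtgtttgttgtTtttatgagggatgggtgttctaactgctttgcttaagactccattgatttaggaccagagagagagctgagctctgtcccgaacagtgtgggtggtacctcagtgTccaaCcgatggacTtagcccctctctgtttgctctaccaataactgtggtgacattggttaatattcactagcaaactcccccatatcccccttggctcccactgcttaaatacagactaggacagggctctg
Serpina1e: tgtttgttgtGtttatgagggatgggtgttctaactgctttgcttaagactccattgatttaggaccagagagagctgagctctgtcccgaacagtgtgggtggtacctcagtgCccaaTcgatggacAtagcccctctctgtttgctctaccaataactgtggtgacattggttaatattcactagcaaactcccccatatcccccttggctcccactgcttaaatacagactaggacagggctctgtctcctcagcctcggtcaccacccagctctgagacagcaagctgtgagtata
Across the 5 genes the promoter windows were 91.7% to 98.4% identical in pairs. The letters GTTAAT on either strand are the core of the binding motif of the hepatocyte factor HNF1. Serpina7 has 2 windows, of which only the first was searched. The letters were in that window, in the windows of all 5 Serpina1 genes, and in 7.1% of 32851 promoter windows of the same length. They were not in the window of Serpina3n, and the palindromic STAT motif TTCNNNGAA was in none of these 7 windows and in 8.3% of all. Promoters of Serpina3k, Serpina3m and Serpina6 were not analysed here.

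The other α1-antitrypsin copies showed much smaller differences. Serpina1a held 6724 and 6233 CPM in male WT and 4128 and 3846 CPM in female WT. In NT-KO it held 5648 and 5085 CPM in males against 2924 and 4390 CPM in females. No male library of Serpina1a was below a female one, and the log2 fold change was 0.70 (SE 0.23, FDR 0.106) in WT and 0.55 (SE 0.23, FDR 0.489) in NT-KO, which did not pass. Serpina1c had a like pattern: the WT males held 2516 and 3574 CPM and the WT females 1936 and 1560 CPM. The NT-KO males held 2898 and 1962 CPM, and the NT-KO females 1428 and 1660 CPM. Its groups did not overlap in either genotype, its log2 fold changes were 0.80 (SE 0.27, FDR 0.109) and 0.65 (SE 0.27, FDR 0.473), and 31.5% of its exon bases are also covered by an antisense gene, B430119L08Rik. Serpina1b lay between 4349 and 6184 CPM in all 8 libraries, and its log2 fold change, male over female, was 0.05 (SE 0.22) in WT and -0.02 (SE 0.22) in NT-KO. Serpina1d lay between 1861 and 4243 CPM with overlapping groups, and its log2 fold change was -0.07 (SE 0.39) in WT and 0.15 (SE 0.39) in NT-KO. Its lowest level was in female NT-KO replicate 1 and its second lowest, 2571 CPM, in male WT replicate 2, the libraries high in Serpina3c.

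Serpina1e made 32.0% to 44.9% of all Serpina1 counts in male libraries and 0.150% to 2.04% in female libraries. Without it, the summed level of Serpina1a to Serpina1d was 15414 to 19009 CPM in males and 10562 to 16477 CPM in females, ranges that overlap. With it, the sum was 23284 to 34117 CPM in males and 10654 to 16577 CPM in females, which do not.

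**Figure D2:**
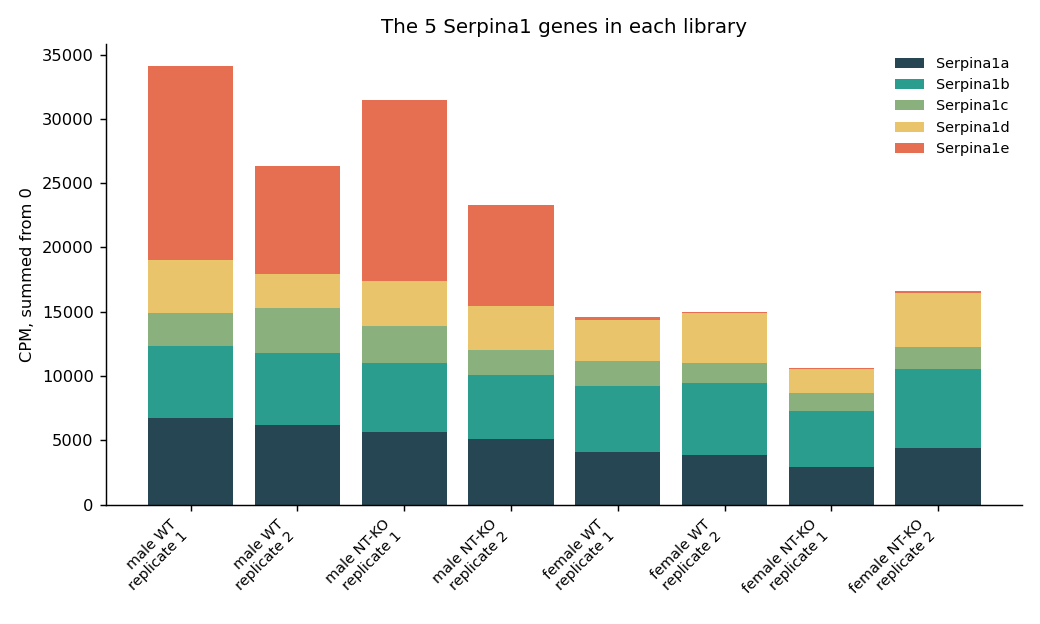
Summed CPM of the 5 Serpina1 genes in each of the 8 libraries, stacked from 0, with a colour for each gene. The Serpina1e segment makes 32.0% to 44.9% of the bar in male libraries and at most 2.04% in female libraries.

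In the Serpina3 group, Serpina3n, an acute-phase gene close to human α1-antichymotrypsin, passed the test in WT. It held 478 and 789 CPM in male WT and 268 and 246 CPM in female WT, which do not overlap. Its log2 fold change, male over female, was 1.30 (SE 0.28, FDR 0.0354). In NT-KO the male libraries, at 306 and 332 CPM, lay in the same range as the female ones, at 442 and 314 CPM, and the log2 fold change was -0.24 (SE 0.27, FDR 0.893). The WT call rested on male WT replicate 2 among others: without it the log2 fold change was 0.90 (FDR 0.134), and the FDR was 0.155 and 0.182 without female WT replicate 1 or 2, and 0.0513 and 0.0518 without female NT-KO replicate 1 or 2. It was 0.0524 with the replicate number as a block, 0.0591 in the 4 compared libraries alone and 0.143 without both libraries high in Serpina3c. Serpina3k, a contrapsin, held 19432 and 19953 CPM in male WT and 9923 and 4606 CPM in female WT. Its male NT-KO libraries held 12445 and 14031 CPM and the female NT-KO libraries 8475 and 5978 CPM. Every male library of Serpina3k was above every female one, yet the log2 fold change of 1.44 (SE 0.36, FDR 0.0537) in WT and 0.87 (SE 0.35, FDR 0.453) in NT-KO did not pass; without female WT replicate 1 the WT value was 2.09 (FDR 0.0242). Serpina3m, next to Serpina3k on the chromosome and 91.7% identical to it in coding sequence, held 282 and 993 CPM in male WT against 342 and 438 CPM in female WT. In NT-KO it held 208 and 289.8 CPM in males and 663 and 450.0 CPM in females. Its male values were thus on both sides of the female ones in WT and below them in NT-KO, with log2 fold changes of 0.71 (SE 0.51, FDR 0.402) and -1.16 (SE 0.51, FDR 0.519), and the WT value was -0.46 without male WT replicate 2. Serpina3k and Serpina3m share 60 exon bases in the annotation.

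The corticosteroid carrier Serpina6 (chr12:103646630-103657212) was the member that passed in the opposite direction. Male WT libraries held 229 and 185 CPM, and female WT libraries 459 and 834 CPM. In NT-KO the males held 396 and 245 CPM and the females 759 and 672 CPM. All 4 female libraries were above all 4 male ones. The log2 fold change, male over female, was -1.64 (SE 0.34, FDR 0.0328) in WT and -1.16 (SE 0.33, FDR 0.211) in NT-KO. The WT call was lost without male WT replicate 1 (FDR 0.0839) or 2 (0.138), without female WT replicate 2 (0.159), without either NT-KO female (0.0579 for replicate 1 and 0.0589 for 2) and without both libraries high in Serpina3c (0.207), and in the 4 compared libraries alone (0.0540), with log2 fold changes from -2.01 to -1.15 when single libraries were left out. Serpina7, the thyroxine carrier, lay far lower, at 6.16 and 6.23 CPM in male WT and 8.96 and 8.06 CPM in female WT, and its log2 fold change in WT was -0.46 (SE 0.33, FDR 0.404). In NT-KO it held 10.7 and 24.2 CPM in males and 6.37 and 5.81 CPM in females, with a log2 fold change of 1.52 (SE 0.33, FDR 0.0791). Without male NT-KO replicate 1 this was 1.99 (FDR 0.00384), and without replicate 2 it was 0.81.

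**Figure D3:**
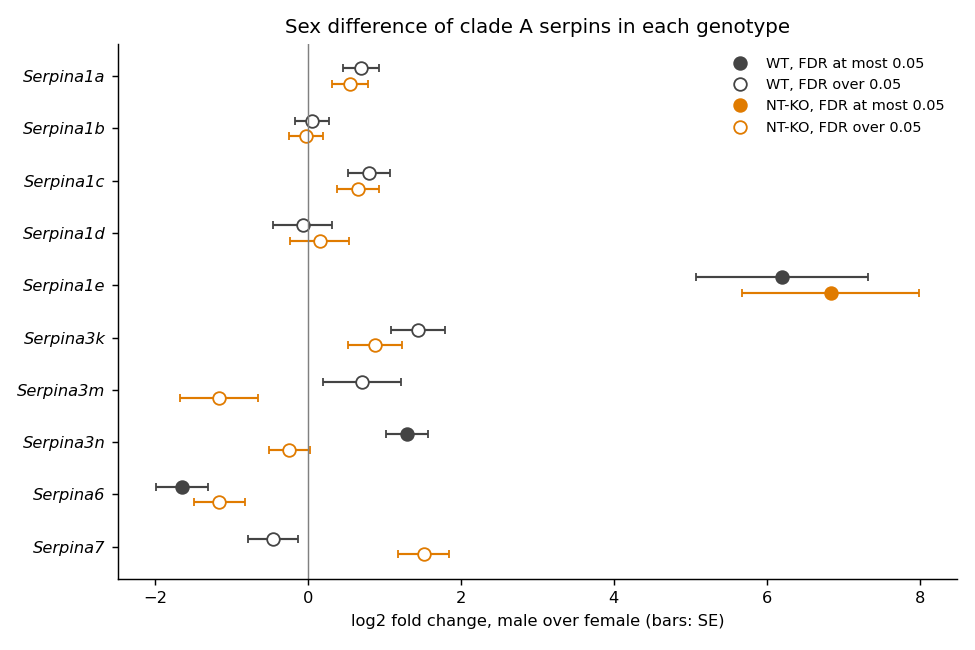
Log2 fold change of each member, male over female, in WT (grey) and NT-KO (orange) liver, with bars of 1 SE and filled points for an FDR of at most 0.05. Serpina1e stands at 6.20 and 6.84, Serpina6 is negative in both genotypes, and Serpina3m, Serpina3n and Serpina7 have opposite signs in WT and NT-KO.

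The second comparison asked what the Lbr deletion did to these genes. None of the 10 members passed an FDR of 0.05 by edgeR's quasi-likelihood test, in males (where 0.0152% of tested genes passed), in females (0.00762%) or over both sexes (0.0152%). At an unadjusted p under 0.05 there were 3 members in males (Serpina3m, Serpina3n and Serpina7, where 11.5% of all genes had one), 0 in females (1.55% of genes) and 0 over both sexes (5.42%). DESeq2 called 2 of the 10 in males (Serpina3n and Serpina7, where it called 2.35% of all genes) and edgeR's likelihood ratio test 1 (Serpina7, where it called 1.94%), and both called 0 in females and over both sexes. In males 6 members had groups that did not overlap, against 38.9% of all genes: 2 were higher in NT-KO (19.6% of genes) and 4 lower (19.2%). In females there were 3 against 26.4%: 2 were higher (12.2%) and 1 lower (14.2%).

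For the α1-antitrypsin genes the log2 fold changes, NT-KO over WT, lay between -0.33 (Serpina1c) and 0.02 (Serpina1d) in males and between -0.74 (Serpina1e) and -0.03 (Serpina1b) in females. Their standard errors were 0.22 to 0.39 for Serpina1a to Serpina1d and 0.90 for Serpina1e, so changes of that size were not detectable with 2 libraries a group. Both male NT-KO libraries of Serpina1a and of Serpina1b lay below both male WT libraries, with a ratio of mean levels of 0.828 and 0.930. The sign of the difference changed for Serpina1d and Serpina1e in males and for Serpina1a, Serpina1b, Serpina1d and Serpina1e in females when 1 library was left out.

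Serpina3n did not overlap between the genotypes in either sex. Male NT-KO libraries held 306 and 332 CPM against 478 and 789 CPM in male WT, and female NT-KO libraries 442 and 314 CPM against 268 and 246 CPM in female WT. The NT-KO pair was thus below the WT pair in males and above it in females. The log2 fold change was -0.99 (SE 0.27, FDR 0.268) in males and 0.56 (SE 0.27, FDR 1) in females. Serpina3m had a log2 fold change of -1.36 (SE 0.52, FDR 0.380) in males and 0.51 (SE 0.51, FDR 1) in females. These values leaned on the 2 libraries picked for their level of Serpina3c, a gene of the same cluster. Male WT replicate 2 was the highest of all 8 libraries for Serpina3m and Serpina3n (993 and 789 CPM). Female NT-KO replicate 1 was the highest female library (663 and 442 CPM). Without male WT replicate 2, the male log2 fold change was -0.18 for Serpina3m and -0.58 for Serpina3n. Serpina3k, at 12445 and 14031 CPM in male NT-KO against 19432 and 19953 CPM in male WT, did not depend on that library: its log2 fold change was -0.57 (SE 0.35, FDR 0.574) and lay between -0.67 and -0.49 with any 1 library left out. In females Serpina3k overlapped between the genotypes, with a log2 fold change of -0.01 (SE 0.35).

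Acute-phase genes, which rise with Serpina3n in inflammation, had values in the same direction. All 23 genes of a list of acute-phase proteins and IL-6 signalling had a negative log2 fold change in males (median -0.80, beside 0.01 over all tested genes), with 0 called by edgeR's quasi-likelihood test, 7 at an unadjusted p under 0.05 (11.5% of all genes) and 5 called by DESeq2 (2.35% of all genes). In females 15 of 23 were positive (median 0.12), with 0 at each of these. Summed, they reached 21814 and 38064 CPM in the WT males, 17416 and 19928 CPM in the NT-KO males and 14410 to 16154 CPM in the 4 female libraries. All 21 genes for folding and export of secreted proteins in the endoplasmic reticulum were likewise negative in males (median -0.96), with 0 called by edgeR's quasi-likelihood test, 15 at an unadjusted p under 0.05 and 12 called by DESeq2, against the same shares of all genes. Summed, they reached 6331 and 11966 CPM in the WT males, 4078 and 4869 CPM in the NT-KO males and 4410 to 5078 CPM in females. Male WT replicate 2 was the highest library in both lists, as it was for Serpina3m and Serpina3n, and the part of these genes in the result was not tested.

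Of the carriers, Serpina7 had the largest NT-KO value. It held 10.7 and 24.2 CPM in male NT-KO against 6.16 and 6.23 CPM in male WT, and 6.37 and 5.81 CPM in female NT-KO against 8.96 and 8.06 CPM in female WT. The NT-KO pair lay above the WT pair in males and below it in females. The log2 fold change was 1.50 (SE 0.33, FDR 0.205) in males and -0.48 (SE 0.33, FDR 1) in females. The male NT-KO libraries themselves differed 2.25-fold: the value was 1.96 (FDR 0.0375) without male NT-KO replicate 1 and 0.79 (FDR 0.188) without replicate 2. A list of 8 B lymphocyte markers was also highest in male NT-KO and next in female WT. Their sum was 47.0 and 75.0 CPM in the NT-KO males and 32.6 and 29.4 CPM in the WT females, but 10.6 and 13.2 CPM in the WT males and 13.7 and 16.7 CPM in the NT-KO females, with all 8 detected in every library, and their part in the result was not tested. Serpina6 held 396 and 245 CPM in male NT-KO against 229 and 185 CPM in male WT, which do not overlap, and its log2 fold change was 0.63 (SE 0.33, FDR 0.501) in males and 0.15 (SE 0.33, FDR 1) in females.

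**Figure D4:**
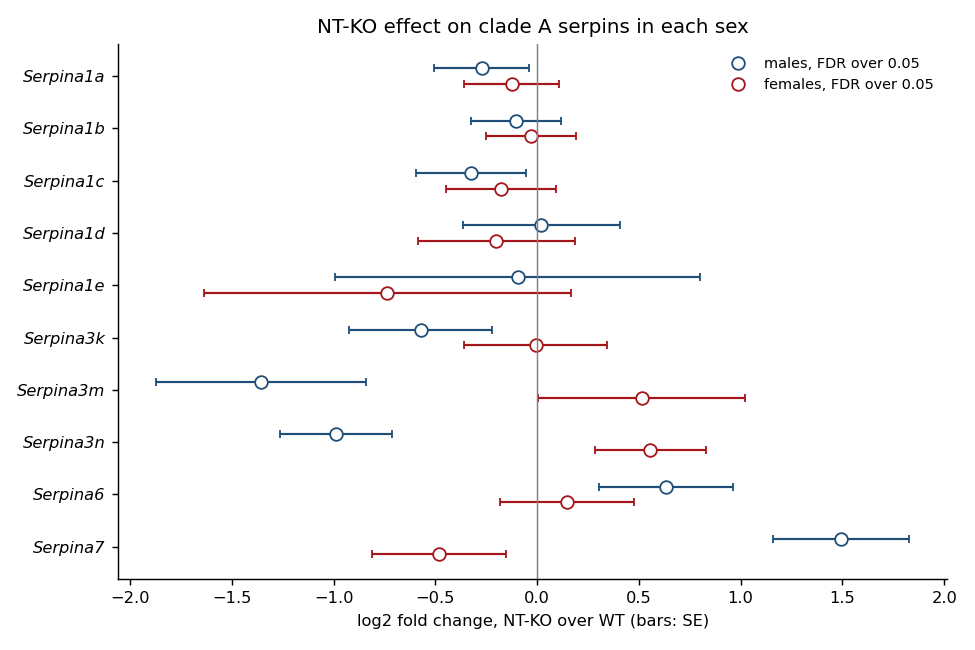
Log2 fold change of each member, NT-KO over WT, in males (blue) and females (red), with bars of 1 SE and open points for an FDR over 0.05, which applies to all 20 values. Serpina3m and Serpina3n are negative in males and positive in females, and Serpina7 is the reverse, from 1.50 in males to -0.48 in females.

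The third comparison asked whether the deletion acted differently in the 2 sexes. No member passed (FDR over 0.05 for all 10, where 0.0152% of genes passed). The largest differences, male effect minus female effect, were 1.98 for Serpina7 (SE 0.47, FDR 0.573), -1.87 for Serpina3m (SE 0.72, FDR 0.660) and -1.54 for Serpina3n (SE 0.39, FDR 0.573) on the log2 scale. These 3 also had an unadjusted p under 0.05, as did 7.2% of all genes. DESeq2 called Serpina7 (FDR 0.0186) and Serpina3n (FDR 0.0194), with 0.473% of all genes, and edgeR's likelihood ratio test called Serpina7 (FDR 0.0406), with 0.351%. Without both libraries high in Serpina3c, the difference was 2.05 for Serpina7, -0.87 for Serpina3n and -0.39 for Serpina3m.

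The remaining genes of the chromosome 12 cluster put the members in context. Of 40 annotated genes from Serpina6 to Serpina3n, 27 were clade A serpins or their pseudogenes, and 21 passed the filter: 9 members and 12 others. In WT, 3 of the 9 members and 1 of the 12 others passed the test between the sexes, where 6.44% of all tested genes passed. That other gene was Serpina12 (vaspin), which held 156 and 106 CPM in the WT males, 125 and 159.9 CPM in the NT-KO males, and 15.8 to 38.7 CPM in the 4 female libraries. Its log2 fold change, male over female, was 2.04 (SE 0.29, FDR 0.00944) in WT and 2.94 (SE 0.30, FDR 0.00223) in NT-KO. It lies next to the Serpina1 group, on the side of Serpina1e, but Serpina11 and Serpina9 lie between them and did not pass (FDR 0.404 and 0.155 in WT). Serpina10, the inhibitor of coagulation factor Xa, lies outside that span and was higher in male WT (278 and 473 CPM) than in female WT (169.7 and 188 CPM, log2 fold change 1.07, FDR 0.0466), and its log2 fold change was -0.07 in NT-KO. Of the 9 tested clade A serpins that are no member, 0 passed edgeR's quasi-likelihood test for NT-KO in either sex, and only Serpina10 and Serpina12 passed between the sexes. For NT-KO, 3 in males and 2 in females had an unadjusted p under 0.05, as did 11.5% and 1.55% of all genes. DESeq2 called 1 and 0, with 2.35% and 0.0381% of all genes.

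**Figure D5:**
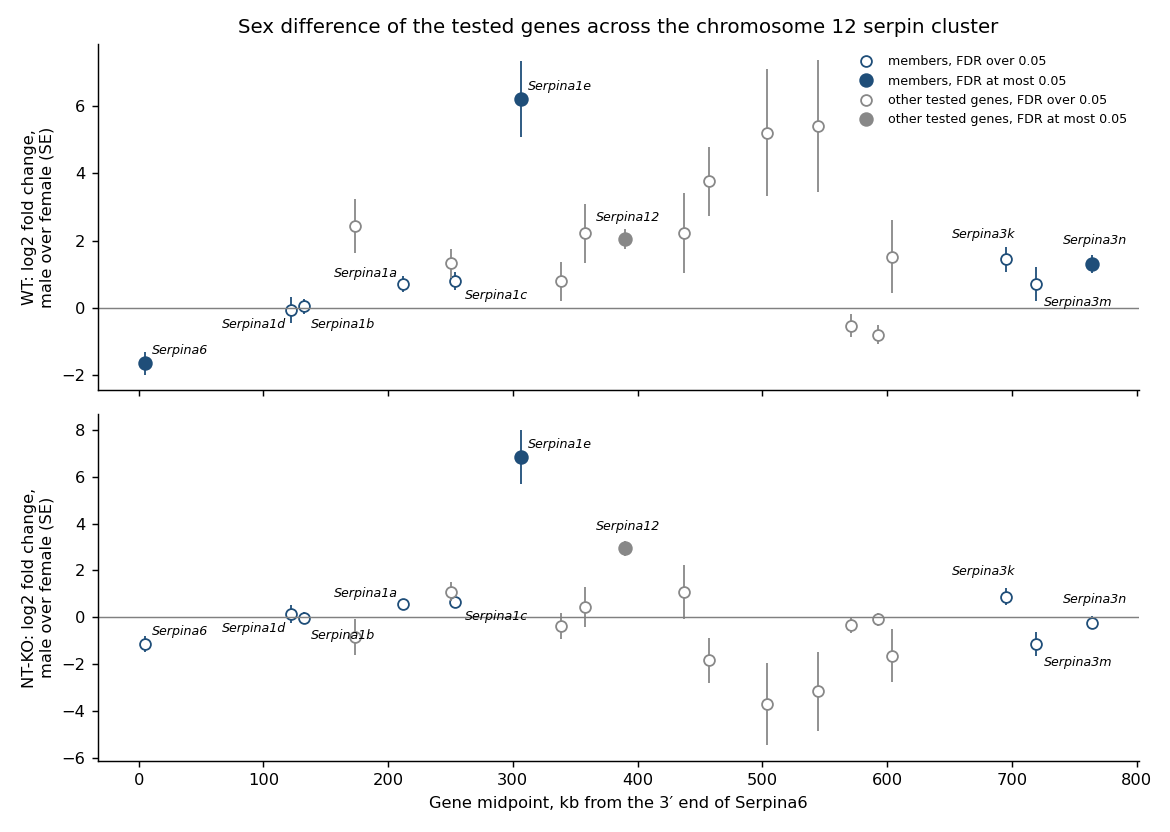
Log2 fold change, male over female, of the 21 tested genes of the chromosome 12 cluster in WT (top) and NT-KO (bottom), against the distance of the gene's midpoint from the 3′ end of Serpina6 in kb, with bars of 1 SE, blue for members, grey for others and filled points for an FDR of at most 0.05. Serpina1e and Serpina12 pass in both genotypes, while their neighbours do not.

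Other genes of the same pathways were counted from lists. Over all tested genes, edgeR's quasi-likelihood test called 6.44% between the WT sexes and 1.86% between the NT-KO sexes. An unadjusted p under 0.05 was found for 27% and 9.81%, and DESeq2 called 13.7% and 3.66%. For NT-KO in males the latter shares were 11.5% and 2.35%. Of 13 male-biased liver genes 11 were called higher in males among the WT libraries and 9 among the NT-KO libraries, and of 17 female-biased genes 17 and 16 were called lower. In growth hormone and STAT5 signalling, which sets the sex bias of liver genes, 3 of 13 genes were called lower in males in WT. In NT-KO 2 were called lower, and 0 were called higher in either genotype. Cux2 and Prlr passed in both, and their log2 fold changes, male over female, were -7.66 and -3.21 in the WT libraries. Of 12 hepatocyte transcription factors, Foxa3 was the one that passed edgeR's quasi-likelihood test, with a log2 fold change, male over female, of 1.75 (FDR 0.0108) in WT and 1.57 (FDR 0.0236) in NT-KO, while DESeq2 called 2 of the 12 in WT. Among 11 tested carriers of other hormones and vitamins, Igfbp3 (insulin-like growth factors) and Tcn2 (vitamin B12) were lower in males in both genotypes, with WT log2 fold changes of -1.06 and -1.03 and NT-KO ones of -1.29 and -1.31, the direction of Serpina6. Of 13 genes of glucocorticoid action, which Serpina6 serves by carrying the hormone, Srd5a1 was called, higher in male WT (log2 fold change 1.71, FDR 0.0108), and between the sexes in NT-KO 0 passed, had an unadjusted p under 0.05 or were called by DESeq2. Of 11 tested genes of thyroid hormone action, 0 were called in any comparison by edgeR's quasi-likelihood test. Between the WT sexes 5 had an unadjusted p under 0.05 and DESeq2 called 3, and for NT-KO in males 2 and 0. Of 9 tested target proteases of these inhibitors, 0 were called between the WT sexes (3 at an unadjusted p under 0.05, 2 by DESeq2) and 1 (Cela1, a pancreatic-type elastase) in NT-KO, higher in males with a log2 fold change of 1.17 (FDR 0.0480). The neutrophil markers, whose elastase α1-antitrypsin inhibits, summed to 3.20 to 16.99 CPM, with 3 of 10 above the filter. Of 12 tested serpins of other clades, 3 passed in WT: Serpinb1a (log2 fold change -4.70, FDR 0.00189) and Serpinb8 (-1.88, FDR 0.0465) were lower and Serpine2 (3.10, FDR 0.0101) was higher in males. Serpinb1a and Serpine2 passed in NT-KO as well.

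The tested genes whose levels over the 8 libraries were most like those of a member, by the root mean square distance of log2 CPM about each gene's mean, were Scara5 for Serpina1e (distance 0.736, beside a spread of 3.61 for Serpina1e itself), Nedd4l for Serpina3n (0.155, spread 0.514), Cyp2a5 for Serpina6 (0.206, spread 0.787), Nek2 for Serpina3k (0.205, spread 0.712), H2-Q2 for Serpina3m (0.304, spread 0.680) and A930001C03Rik for Serpina7 (0.266, spread 0.639).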

How the data were processed

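Liver total RNA was made into TruSeq libraries, and the authors trimmed reads with cutadapt, aligned them to GRCm38 with STAR 2.6.1a and counted them per gene with featureCounts. The deposited table holds these raw counts per gene for all 8 libraries. The strand setting and the handling of reads with several matches are not given in the sources used here. Gene symbols came from GENCODE M21 for 49412 of 49671 identifiers, and 0 columns were left unused. rRNA, miRNA and mitochondrial genes (45) were dropped, and 13117 genes with at least 1 CPM in 2 libraries were tested. The test was edgeR 4.0.16 (R 4.3.3) quasi-likelihood with TMM scaling and 4 group means, with Benjamini-Hochberg adjustment (FDR). SE is the log2 fold change divided by the root of F. Levels are CPM of the scaled library. DESeq2 1.42.0, other scalings, filters, a replicate block and left-out libraries were tried, and the scripts were tested on simulated data. All 10 members may be named, with tested clade A serpins and, from each other list, at most 4 called genes a comparison by smallest p. Some genes and counts of these lists are not reported here. The members and lists were chosen with earlier results of these data known. Coding sequences were aligned with MAFFT 7.526.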

Additional observations from a re-analysis of the deposited data

Results flagged for a closer look

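The NT-KO effect on Serpina3n and on Serpina7 went in opposite directions in the sexes in every library: both NT-KO libraries of Serpina3n were below both WT libraries in males and above them in females, and for Serpina7 the reverse. The difference, male minus female, was -1.54 on the log2 scale for Serpina3n and 1.98 for Serpina7. Neither passed edgeR's quasi-likelihood test of the difference itself (FDR 0.573 for each). In males 19.6% of all genes had both NT-KO libraries above both WT libraries and 19.2% had them below. In females these shares were 12.2% and 14.2%. The share of genes with opposite directions in the sexes was not counted. Without male WT replicate 2 the male log2 fold change of Serpina3n was -0.58, and without male NT-KO replicate 2 that of Serpina7 was 0.79.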

How the results depend on the processing

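With 2 libraries a group, single libraries decide several values. Of 1070 values of single members under alternatives, 963 kept their direction and their side of the threshold, 30 passed newly, 25 no longer passed and 52 changed sign; the causes were not tested. The number of members called for NT-KO in males (0 of 10) was 1 with edgeR's likelihood ratio test, 2 with DESeq2 and 3 with no filter, and for the difference between the sexes (0) also 1, 2 and 3. Between the WT sexes (3) it was 6 with DESeq2, 5 with no filter and 0 in the 4 libraries alone, where 688 genes in all passed (5.25%). Between the NT-KO sexes (1) it was 3 with the likelihood ratio test, 3 with DESeq2 and 5 with no filter. Robust dispersion gave 0 members there and 220 genes in all (1.68%). Leaving out 1 library, or both libraries high in Serpina3c (an alternative chosen after seeing the data), left 1 library in a group. Whether a member's call was lost there through its own values or through the smaller group, which limits every gene, cannot be told apart.

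Over all tested genes the calls for NT-KO in males were 2, against 254 with the likelihood ratio test, 308 with DESeq2 and 917 with no filter, and in females 1, 11, 5 and 194. Between the WT sexes they were 845, 1707, 1802 and 2664, and between the NT-KO sexes 244, 467, 480 and 976. Over both sexes they were 2, 51, 62 and 445, and for the difference of the effects 2, 46, 62 and 552. Scaling by library size alone gave 1316 calls between the WT sexes, 306 higher and 1010 lower in males against 409 and 436, and moved the median log2 fold change of all genes to -0.177; Serpina1b then stood at -0.12, and at 0.0217 for the difference of the effects.

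The replicate numbers as labelled showed no common pairing (correlations of deviations from -0.18 to 0.21 over the 6 pairs of groups, 3 of them negative). Male WT stood at -0.18 with female WT and -0.13 with female NT-KO, and male NT-KO at 0.21 and 0.11. Within a sex the values were -0.0067 in males and 0.023 in females. A batch shared by libraries of unlike numbers was not tested over all 8 libraries. With the replicate block, 2 members were called between the WT sexes and 680 genes in all, Serpina3n no longer passed (FDR 0.0524), and Serpina1d in males stood at -0.0002149 and Serpina3k in females at 0.0269. In the WT libraries the numbers crossed, also chosen after seeing the data, gave 2 members (Serpina3n and Serpina6) and 1157 genes, and Serpina1e no longer passed (FDR 0.0633). Serpina3k in females was 0.00273 with no filter and 0.00056 with filterByExpr. Without both libraries high in Serpina3c, signs changed for Serpina1a (0.14), Serpina1b (0.20) and Serpina1d (0.27) in females, Serpina1d in males (-0.28), Serpina1b (0.0388) and Serpina3m (0.0113) over both sexes, Serpina1c (0.0247) and Serpina1d (-0.55) in the difference of the effects, Serpina1d (0.23) and Serpina3m (-0.47) between the WT sexes, and Serpina1d (-0.32) and Serpina3n (0.0261) between the NT-KO sexes.

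With single libraries left out, the log2 fold changes that changed sign ran as follows. For NT-KO in males Serpina1d ran from -0.28 to 0.40 and Serpina1e from -0.58 to 0.38. In females Serpina1a ran from -0.45 to 0.14, Serpina1b from -0.31 to 0.20, Serpina1d from -0.92 to 0.27, Serpina1e from -1.63 to 2.10, Serpina3k from -0.46 to 0.65 and Serpina6 from -0.22 to 0.64. Over both sexes Serpina1b ran from -0.21 to 0.0474, Serpina1d from -0.45 to 0.15, Serpina1e from -0.86 to 1.00, Serpina3k from -0.52 to 0.0385 and Serpina3m from -0.74 to 0.17. The difference of the effects ran from -0.41 to 0.18 for Serpina1a, -0.30 to 0.20 for Serpina1b, -0.45 to 0.13 for Serpina1c, -0.25 to 0.94 for Serpina1d, -2.20 to 1.54 for Serpina1e and -0.00652 to 0.85 for Serpina6. Between the WT sexes Serpina1b ran from -0.0141 to 0.12, Serpina1d from -0.44 to 0.23 and Serpina3m from -0.46 to 1.36, and between the NT-KO sexes Serpina1b from -0.25 to 0.26, Serpina1d from -0.32 to 0.87 and Serpina3n from -0.47 to 0.0250.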
